A study of Mus musculus with 12 samples.

Results

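Branched-chain amino acid breakdown was followed through 9 of the 24982 gene symbols measured: Bcat1, Bcat2, Bckdha, Bckdhb, Dbt, Bckdk, Ivd, Mccc1 and Mccc2. These genes were chosen by their place in the pathway and with the higher Bcat1 of Eμ-Myc cells already seen in these libraries, so their differences from wild type are a description and carry no test. All 9 were found in every library. RNA with poly(A) tails came from B lymphocytes isolated from spleens of mice 6 weeks old, in 3 genotypes of 4 libraries each. WT mice were C57BL/J6 per the labels. Eμ-Myc mice carry Myc under the immunoglobulin heavy-chain enhancer, which is active in B-lineage cells, so the Myc coverage given here may hold transgene and endogenous transcripts together. Eμ-Myc;PRPS2 KO mice carry the same transgene and lack PRPS2, an isoform of phosphoribosyl pyrophosphate synthetase, and are called the knockout group. The strain of the transgenic mice, their tumour status and the tissues in which PRPS2 is lost are not given in the labels. The labels call the replicates biological and name no animal, so p-values measure the spread between these libraries.

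Leucine, isoleucine and valine are broken down along a shared route that begins with reversible transfer of the amino group to 2-oxoglutarate, which yields glutamate and a branched-chain keto acid. BCAT1 does this in the cytosol and BCAT2 in mitochondria. BCAT1 is restricted to few adult tissues, such as the brain, and is raised in several cancers. The keto acids are then decarboxylated by a mitochondrial complex: BCKDHA and BCKDHB form its E1 component, DBT is its E2 core, and DLD is an E3 subunit shared with other complexes. BCKDK phosphorylates E1 and switches the complex off, and the phosphatase PPM1K reverses this. After that step the leucine branch runs through IVD, isovaleryl-CoA dehydrogenase, and through 3-methylcrotonyl-CoA carboxylase, made of the biotin-carrying subunit MCCC1 and the subunit MCCC2.

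Bcat1 lies on mouse chromosome 6 at 144993835 to 145076184 on the minus strand (GRCm38, GENCODE M21). RefSeq gives it 2 start sites in the promoter set used here, an outer one at 145076157 and an inner one at 145048812. Both lie within these bounds, the outer one near the end where the gene begins. Both promoters are shown because Bcat1 differed most between the groups. Each run holds the 250 bases before a start, from RefSeq on GRCm38.p6, and capitals mark a CACGCG match on either strand.
Bcat1 outer start, chr6:145076158-145076407, minus strand: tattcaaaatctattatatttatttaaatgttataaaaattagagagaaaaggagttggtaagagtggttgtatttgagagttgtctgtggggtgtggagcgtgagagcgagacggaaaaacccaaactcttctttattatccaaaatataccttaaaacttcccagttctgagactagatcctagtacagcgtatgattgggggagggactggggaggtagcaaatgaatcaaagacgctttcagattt
Bcat1 inner start, chr6:145048813-145049062, minus strand: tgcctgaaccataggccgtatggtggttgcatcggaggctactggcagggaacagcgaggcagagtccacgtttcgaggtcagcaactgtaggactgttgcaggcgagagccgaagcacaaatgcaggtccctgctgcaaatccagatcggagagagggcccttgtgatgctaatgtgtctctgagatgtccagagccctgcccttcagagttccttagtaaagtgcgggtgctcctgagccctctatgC
The window of the outer start, from 250 bases before to 50 after it, held 41% G and C and 6 CpG dinucleotides. That of the inner start held 58.7% and 16.

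Promoter windows of 300 bases were matched for 8 of the 9 genes, 11 windows in all; Dbt had no entry. They were searched on both strands for CACGTG, the E-box letters that Myc with its partner Max is known to bind, and for the variant CACGCG. The first, CACGTG, was found in 1 of the 11 windows, that of Mccc2, against 7.15% of 32851 mouse promoter windows of the same length. CACGCG was found in 1 of the 11, that of the inner Bcat1 start, against 9.27%. Both stretches of 30 bases are shown in gene direction, with the match in capitals.
Mccc2, chr13:100015631-100015660, minus strand: ggtctgcgatggCACGTGtgcggggctggc
Bcat1 inner start, chr6:145048796-145048825, minus strand: gagccctctatgCGCGTGcccagccatgcg
The Mccc2 match began 9 bases before its start and the Bcat1 match 1 base before its inner start. A match says only that these letters are present. Binding was not measured in these libraries.

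The deposited values are coverage per gene with 1 decimal, not read counts, and the depth behind each is unknown. Summed over genes they ran from 1277305.5 to 1885768.9 per library. They were divided by 1 scaling factor per library and are called scaled coverage below. Since it is not stated whether they are divided by gene length, levels are compared between libraries and not between genes. The defining B-cell markers, 8 of 8, were at 1 or more in every library. In every WT and Eμ-Myc library so were all 7 T-cell, 6 NK and 9 myeloid markers measured. This check therefore does not show that the libraries hold B cells alone. Prps2, which checks the knockout label, had a scaled coverage of 198 to 285 in Eμ-Myc and of 15.4 to 18.7 in the knockout group. Knockout libraries 1 and 2 stood apart from 3 and 4 in the markers of other cells: the summed scaled coverage of 7 T-cell markers was 519 and 555 in the first pair, 12.8 and 11.6 in the second, and 85.4 to 124 in Eμ-Myc. In bulk RNA, fewer cells of a type and less RNA per cell cannot be told apart.

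Bcat1 was nearly silent in the WT libraries and strongly expressed in every library with the transgene. Its scaled coverage was 0.492, 0.85, 0.77 and 0.686 in WT libraries 1 to 4, and 47.7, 45.1, 54.0 and 62.6 in Eμ-Myc. In the knockout group it was 20.6, 34.6, 104 and 102. No WT library came near a library of the other groups: the lowest library with the transgene lay 24.2-fold above the highest WT library. Group means were 0.699 ± 0.154, 52.3 ± 7.78 and 65.3 ± 43.9 (SD, n = 4 each), a ratio of 74.9 for Eμ-Myc over WT and of 93.4 for the knockout group over WT.

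**Figure D1:**
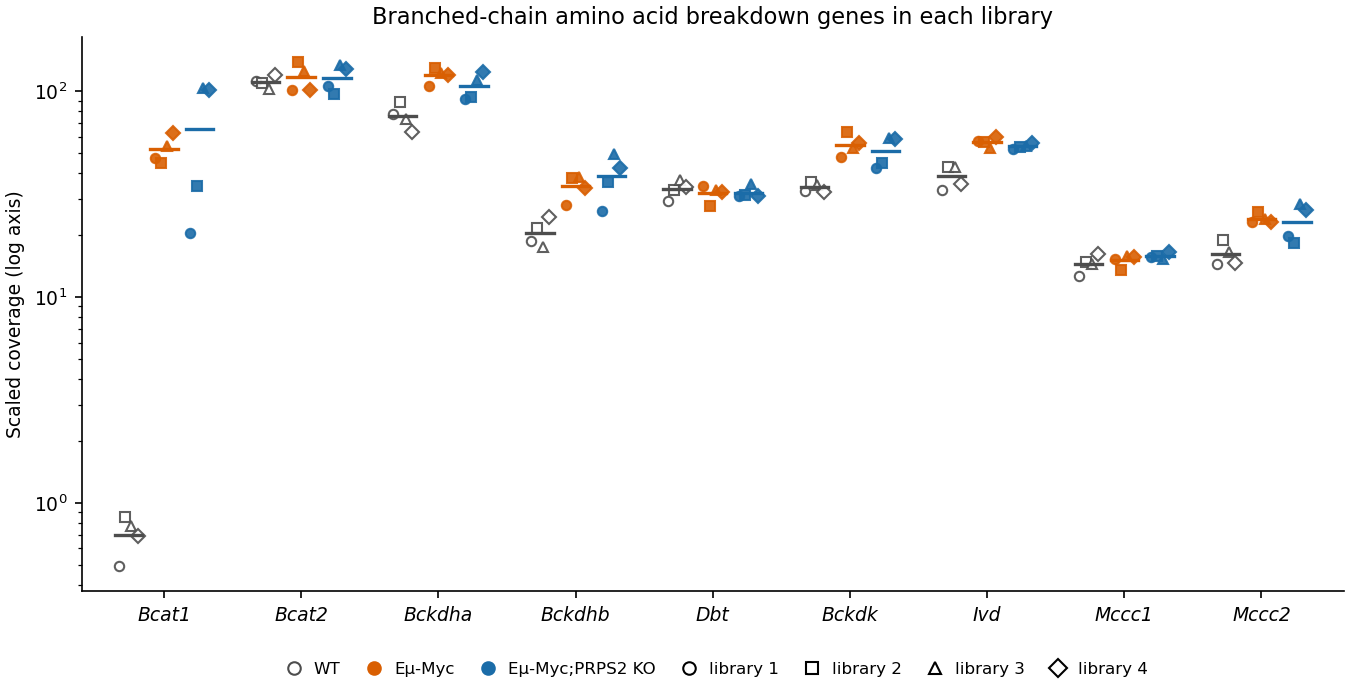
Scaled coverage (log axis) of the 9 genes in each of the 12 libraries; colours are the 3 genotypes, symbols the library numbers and horizontal bars the group means. Bcat1 sits between 0.492 and 0.85 in WT and between 20.6 and 104 in all libraries with the transgene, while the other 8 genes lie far closer together.

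The WT values of Bcat1 were 0.6 to 0.9 before scaling, in steps of 0.1, so rounding alone can move one by up to 8.3%. On the log2(scaled coverage + 0.5) scale used for fitting, the difference between Eμ-Myc and WT was 5.46 (SE 0.17). It was the largest increase of the 12704 genes tested. A pseudocount of 0.1 gave 6.05 and rank 3, and a pseudocount of 2 gave 4.32 and rank 2. Bcat1 passed the filter on low values, a scaled coverage of 1 in at least 4 of the 8 libraries compared, through the transgenic libraries alone, which fixes the direction of its difference.

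Bcat2, the mitochondrial counterpart, did not share this pattern. Its scaled coverage was 112, 110, 103 and 120 in WT, 102, 139, 126 and 101 in Eμ-Myc, and 106, 96.7, 134 and 129 in the knockout group. The 3 genotypes overlapped. The log2 difference between Eμ-Myc and WT was 0.06 (SE 0.12), and it turned to -0.08 when libraries were scaled by their total coverage.

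Since both enzymes carry out the same reaction, their coverage was also set against each other within each library, which needs no scaling between libraries. The ratio of Bcat1 to Bcat2 was 0.0044 to 0.00772 in WT and 0.324 to 0.622 in Eμ-Myc. In knockout libraries 1 to 4 it was 0.194, 0.358, 0.779 and 0.789. The ratio was thus higher in all 8 libraries with the transgene. Its size is not a ratio of molecules, since the lengths behind the values are not stated.

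Subunits of the keto acid dehydrogenase complex did not move as one. Bckdha, the E1 alpha subunit, had a scaled coverage of 77.2, 88.9, 73.8 and 63.5 in WT, 106, 130, 123 and 120 in Eμ-Myc, and 91.6, 93.5, 114 and 124 in the knockout group. All 8 libraries with the transgene lay above the 4 of WT. The log2 difference was 0.66 (SE 0.12) for Eμ-Myc and 0.48 (SE 0.15) for the knockout group, each against WT.

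Bckdha and B3gnt8, a glycosyltransferase gene on the opposite strand of chromosome 7, share 61.7% of the annotated exon bases of Bckdha. The library kit keeps the strand, but whether strand was used to make the coverage is not stated, so the Bckdha values are uncertain. B3gnt8 did not share the pattern of Bckdha: its scaled coverage was 64.8 to 171 in WT, 56.7 to 78.1 in Eμ-Myc and 44.1 to 61.4 in the knockouts.

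Bckdhb, the E1 beta subunit, had a scaled coverage of 18.7, 21.7, 17.5 and 24.5 in WT, 28.1, 37.9, 38.2 and 34.0 in Eμ-Myc, and 26.1, 36.1, 49.7 and 42.6 in the knockout group. The lowest library with the transgene lay just above the highest of WT. Its log2 difference from WT was 0.73 (SE 0.15) in Eμ-Myc and 0.86 (SE 0.21) in the knockout group.

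Dbt, the E2 core on which E1 assembles, showed no such step, with a scaled coverage of 29.3, 33.1, 37.0 and 34.4 in WT, 34.5, 27.8, 33.1 and 32.4 in Eμ-Myc, and 30.9, 31.3, 35.4 and 31.0 in the knockout group. These ranges overlapped throughout. The log2 difference between Eμ-Myc and WT was -0.06 (SE 0.11). The ratio of Bckdha to Dbt within a library averaged 2.29 ± 0.43 for WT, 3.79 ± 0.67 for Eμ-Myc and 3.29 ± 0.48 for the knockouts (SD, n = 4 each). Bckdha coverage was thus higher relative to Dbt with the transgene, with the uncertainty of the Bckdha values given above.

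Bckdk, the kinase that inhibits the complex, was higher together with the E1 subunits. Its scaled coverage was 32.9, 36.3, 35.1 and 32.6 in WT, 48.2, 63.4, 52.9 and 56.1 in Eμ-Myc, and 42.3, 45.0, 59.1 and 59.0 in the knockout group. WT lay below both other genotypes without overlap. The log2 difference from WT was 0.68 (SE 0.11) in Eμ-Myc and 0.56 (SE 0.14) in the knockout group. The ratio of Bckdk to Bckdha stayed close, at 0.456 ± 0.048 for WT, 0.46 ± 0.023 for Eμ-Myc and 0.484 ± 0.023 for the knockouts (SD, n = 4 each). The uncertainty of the Bckdha values applies to this ratio too.

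In the leucine branch, Ivd was higher with the transgene in every library. It stood at a scaled coverage of 33.3, 43.0, 42.9 and 35.5 in WT, 57.3, 57.0, 53.2 and 59.9 in Eμ-Myc, and 52.2, 53.6, 54.5 and 56.0 in the knockout group. The genotypes with the transgene were tightly grouped above WT. The log2 difference from WT was 0.56 (SE 0.11) in Eμ-Myc and 0.49 (SE 0.12) in the knockout group.

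The carboxylase subunits parted. Mccc1 had a scaled coverage of 12.7, 14.8, 14.5 and 16.2 in WT, 15.4, 13.6, 15.9 and 15.7 in Eμ-Myc, and 15.6, 15.8, 15.4 and 16.6 in the knockout group, and the genotypes overlapped. Mccc2, whose promoter holds the CACGTG match shown above, had 14.5, 19.0, 16.5 and 14.7 in WT, 23.2, 25.9, 23.9 and 23.3 in Eμ-Myc, and 19.9, 18.3, 28.2 and 26.6 in the knockout group. Eμ-Myc lay wholly above WT for Mccc2, while knockout library 2 fell within the WT range. The log2 difference between Eμ-Myc and WT was 0.06 (SE 0.13) for Mccc1, which became -0.08 under total coverage scaling, and 0.57 (SE 0.12) for Mccc2. The ratio of Mccc2 to Mccc1 averaged 1.12 ± 0.15 for WT, 1.6 ± 0.2 for Eμ-Myc and 1.47 ± 0.31 for the knockouts (SD, n = 4 each).

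**Figure D2:**
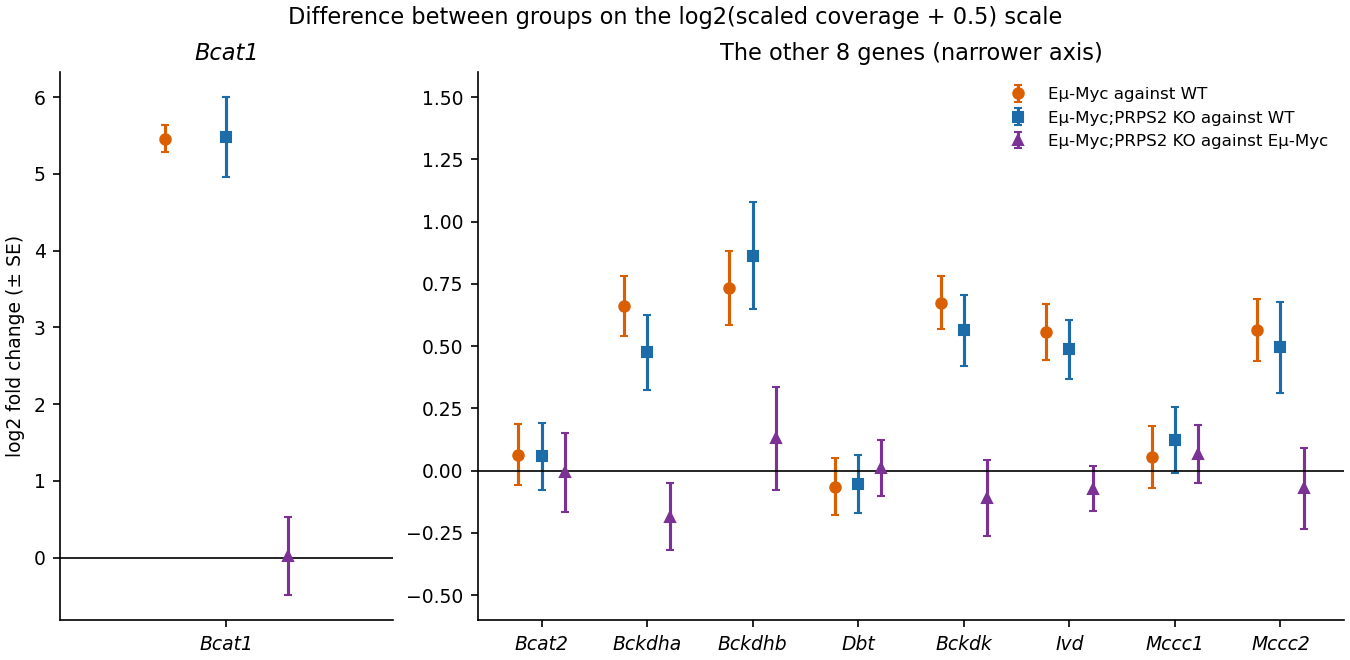
Log2 fold change with SE of the 9 genes in the 3 comparisons, Bcat1 on the left with a wider axis. Bcat1, Bckdha, Bckdhb, Bckdk, Ivd and Mccc2 lie above 0 in both comparisons with WT, Bcat2, Dbt and Mccc1 lie near 0, and the knockout group against Eμ-Myc runs from -0.18 to 0.13.

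Over the whole list, 6 of the 9 genes were higher in Eμ-Myc than in WT by limma, at a Benjamini-Hochberg adjusted p below 0.05 in the set of tested genes, which is what called means here. Since these libraries were in view when the genes were chosen, the count is a description and nothing is read from it. Bcat1 could only be tested because it is high with the transgene, and without it the count is 5 of 8. Of all 12704 genes tested, 55.8% were called, 29.1% higher and 26.7% lower. Total coverage scaling moved the median of all genes by -0.14 on the log2 scale and the share of higher among called genes from 52.1% to 42%. The same 6 genes were called higher under it. Summed T-cell markers were at 420 to 2423 in WT and 85.4 to 124 in Eμ-Myc, and NK markers at 328 to 1377 and 85.7 to 238, both without overlap. The sums of 9 myeloid markers, most of it S100a8 and S100a9, overlapped at 8251 to 25758 and 5715 to 16828. Their part in the differences was not tested. Groups did not overlap for those 6 genes, or for 5 of 8 without Bcat1, against 52.1% of all genes. For Bcat1 the filter on low values fixed this in advance. The median log2 difference of the 9 was 0.57, beside -0.05 over all genes tested.

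The knockout group against WT used the same 4 WT libraries, so the counts of both comparisons are not separate evidence. Here 5 of the 9 genes were called higher by limma, with a background of 30.7% of 12692 genes called, 19.7% higher and 11% lower. This too is a description. These were Bcat1 at 5.48 (SE 0.52), again tested only through the libraries where it is high, Bckdhb, Bckdk, Ivd and Bckdha, and the count is 4 of 8 without Bcat1. The call of Bckdha was lost in 10 of 17 alternatives, both other scalings and the replicate block among them, that of Ivd in 8 and that of Bckdk in 7, the block included, and that of Bckdhb in 5, each leaving out 1 library. Mccc2 had a log2 difference of 0.50 (SE 0.18) and was not called, but was called in 5 of 17 alternatives. Groups did not overlap for 5 of the 9, or for 4 of 8 without Bcat1, where the filter fixed this, beside 38.2% of all genes. The count depended on which libraries entered. It was 0 without knockout library 3 or knockout library 4, 1 without WT library 1, 2 or 3, and 2 without WT library 4. Calls over all genes fell in the same fits, from 3901 to 864 and 832 without knockout library 3 or 4. They fell to 1108, 786 and 774 without WT library 1, 2 or 3, and to 1660 without WT library 4. Without knockout library 1 or 2 they were 6748 and 4280, with 5 members called in each fit. When a knockout library is left out, Bcat1 no longer reaches the filter on low values and is not tested.

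The second question of the design was whether loss of PRPS2 changes expression in cells that carry the Myc transgene. None of the 9 genes was called in the knockout group against Eμ-Myc by limma, and none had an unadjusted p under 0.05. Of the 12535 genes tested, 1 (0.00798%) was called. It was Prps2 itself, at -3.81 (SE 0.13, limma adjusted p 2.01e-05). For 124 genes the limma p before adjustment was below 0.05, fewer than this cut-off alone would let through if no gene differed. The median SD of log2 values was 0.37 in the knockout group and 0.21 in Eμ-Myc. The lack of calls among the 9 therefore does not show that loss of PRPS2 left them unchanged. Log2 differences ran from -0.18 for Bckdha to 0.13 for Bckdhb, with a median of -0.01, and each limma adjusted p was 1.00. Library quality weights, which count knockout libraries 3 and 4 far above 1 and 2, instead called 7000 genes and 3 of the 9, with Bcat1 at 0.86. No gene of the 9 had groups that did not overlap, against 1.43% of all genes.

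The intervals of these differences, from the unpaired fit, were wide for Bcat1 and narrower for the rest. For Bcat1 the log2 difference was 0.02 with a 95% interval from -1.15 to 1.19, so a change of about the size of a doubling in either direction lies inside it. Bcat2 had an interval from -0.37 to 0.36 and Dbt one from -0.25 to 0.27. Ivd was bounded most closely, between -0.28 and 0.13. Bckdha ran from -0.49 to 0.13, Bckdk from -0.46 to 0.24 and Bckdhb from -0.35 to 0.61. The carboxylase genes lay between -0.20 and 0.34 for Mccc1 and between -0.44 and 0.30 for Mccc2.

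Within-library ratios gave no difference beyond the spread either. The ratio of Bcat1 to Bcat2 differed by 0.02 on the log2 scale between the knockout group and Eμ-Myc (exact two-sided permutation test p 0.971). For Bckdha to Dbt the difference was -0.20 (exact p 0.314), for Bckdk to Bckdha 0.07 (exact p 0.229), and for Mccc2 to Mccc1 -0.14 (exact p 0.514). Adjusted over the 4 ratios, the smallest exact p was 0.629. With 4 libraries against 4 the test can reach 0.0286 before adjustment, and a single ratio at that value would be adjusted to 0.114, so this test could not have passed 1 changed ratio.

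What set the knockout group apart for Bcat1 was its spread. All 4 knockout libraries lay outside the Eμ-Myc range, libraries 1 and 2 below it and libraries 3 and 4 above it, and the highest was 5.06-fold the lowest. The coefficient of variation was 67.2%, against 14.9% in Eμ-Myc. A larger spread was common in this group: the SD of log2 values exceeded that of Eμ-Myc in 75.3% of all genes tested and in 5 of the 9. The SD of Bcat1 in the knockout group was larger than that of 90.2% of tested genes. Mccc2 likewise had 2 knockout libraries below and 2 above the Eμ-Myc range.

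Myc had a scaled coverage of 1125, 1724, 2871 and 3123 in knockout libraries 1 to 4 and of 1551 to 2286 in Eμ-Myc. Library 1 lay below the Eμ-Myc range, library 2 inside it and libraries 3 and 4 above it. T-cell, NK and myeloid markers were lower in libraries 3 and 4. Summed T-cell markers were 519, 555, 12.8 and 11.6, NK markers 569, 415, 21.1 and 19.9, and myeloid markers 15849, 11562, 2888 and 1258 in the same order. All of the T-cell, NK and myeloid markers measured, 7, 6 and 9, were above 0 in at least 1 knockout library, and B-cell markers stayed between 6842 and 7837. Plasma-cell markers were likewise higher in libraries 1 and 2, at 504, 596, 233 and 261. Erythroid markers did not share this order, at 103, 87.5, 116 and 120, and platelet markers stood at 129, 32, 31.9 and 36.5. Bcat1 was thus lower in the 2 libraries where T-cell, NK, myeloid and plasma-cell markers were higher and Myc was lower. The part of cell make-up in the Bcat1 spread was not tested.

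**Figure D3:**
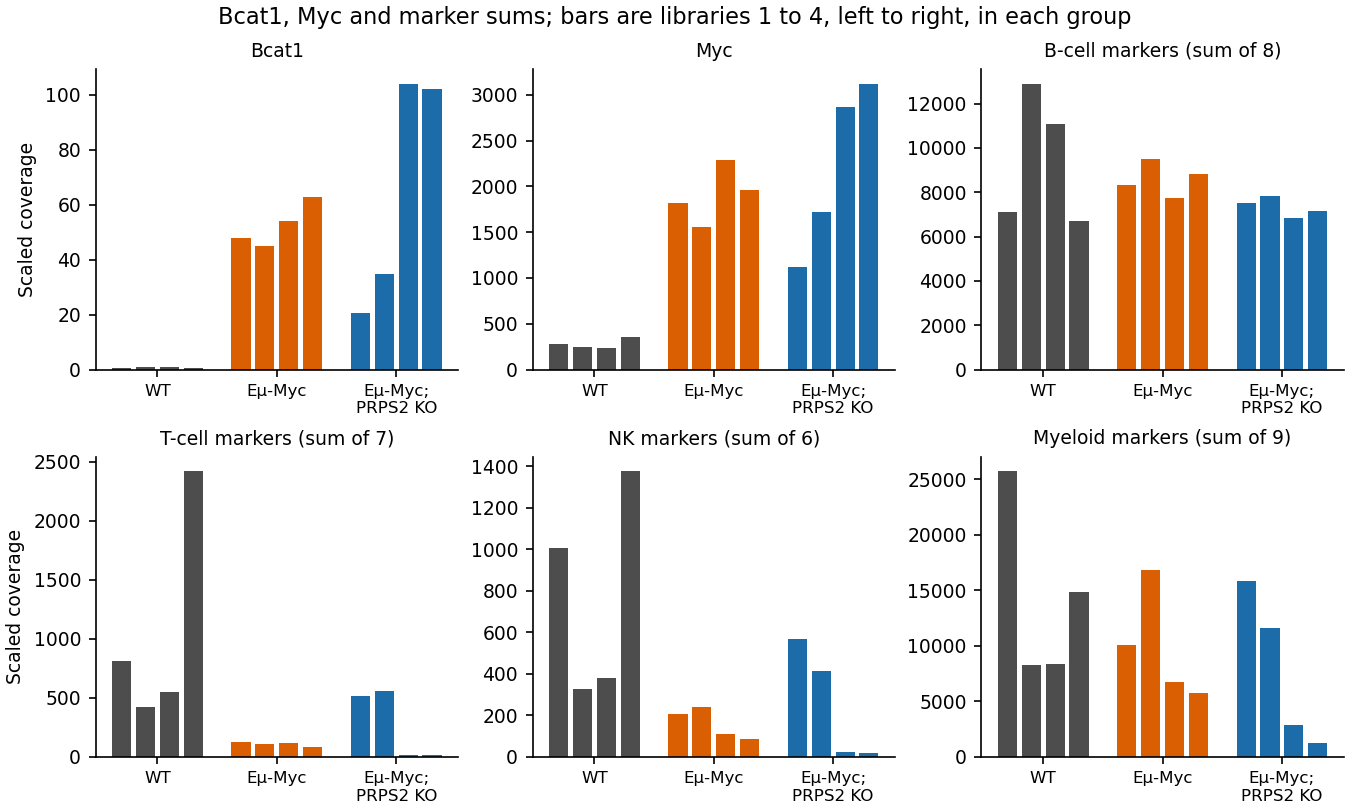
Scaled coverage of Bcat1, Myc and the summed markers of B, T, NK and myeloid cells; each bar is 1 library, in the order 1 to 4 within each genotype. Knockout libraries 3 and 4 hold Bcat1 at 104 and 102 with T-cell markers at 12.8 and 11.6, while knockout libraries 1 and 2 hold Bcat1 at 20.6 and 34.6 with T-cell markers at 519 and 555.

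Genes whose profile was most like that of Bcat1 were ranked by the root mean square difference of their centred log2 values over the 12 libraries, among 9650 genes with a mean of 8 or more and no Gm or Rik symbol. The closest were Hspa12b at 0.42, Uchl1, a ubiquitin hydrolase gene, at 0.44, Eps8l2 at 0.52, Ltbp4 at 0.57 and Alpl, tissue-nonspecific alkaline phosphatase, at 0.66. Uchl1 had a scaled coverage of 3.11 to 6.7 in WT, 146 to 243 in Eμ-Myc, and 81.1, 111, 226 and 223 in the knockout libraries. It shared both the step from WT and the split inside the knockout group, which is what the ranking selects for. The likeness rests on the 3 genotypes and on 12 libraries that all genes share.

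The rest of the pathway was read from 41 other genes, all of them measured and tested. In Eμ-Myc against WT, 25 were called higher and 9 lower by limma, beside the background of 29.1% and 26.7% given above. Under total coverage scaling 19 were higher and 9 lower, and no called gene changed sign. The median log2 difference was 0.47, beside -0.05 over all genes tested. In the knockout group against WT, 15 were called higher and 4 lower, beside 19.7% and 11% of all genes. When 1 library was left out, the 19 calls became 3 to 28, and the 3901 calls over all genes became 774 to 6748. Between the knockout group and Eμ-Myc, 0 of the 41 were called, and 1 had an unadjusted p under 0.05. Of all 12535 genes tested there, 1 was called and 124 had such a p.

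Among the wider genes the largest increases were those of Slc7a5 and Slc43a1, both for uptake, and of Lipt2, a cofactor gene. Slc7a5, the large neutral amino acid transporter that brings leucine into the cell, had a scaled coverage of 18.9, 14.7, 16.5 and 22.7 in WT, 78.0, 64.4, 96.8 and 94.6 in Eμ-Myc, and 45.9, 72.3, 136 and 134 in the knockout group. All libraries with the transgene exceeded WT, and knockout libraries 3 and 4 lay above the Eμ-Myc range, library 1 below it and library 2 inside it. Its log2 difference between Eμ-Myc and WT was 2.16 (SE 0.17, limma adjusted p 1.47e-05). Slc43a1, another transporter of these amino acids, rose by 1.32 in that comparison (SE 0.13, limma adjusted p 4.28e-05). Of the 6 transport genes, 3 were called higher and 1 lower, beside 29.1% and 26.7% of all genes. The one called lower was Slc25a44, the mitochondrial carrier of branched-chain amino acids, which fell by 0.40 (SE 0.11, limma adjusted p 0.0117) and which was singled out after its value was seen.

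All 6 genes that charge tRNA with leucine, isoleucine or valine were called higher in Eμ-Myc than in WT, where 29.1% of all genes were. All 6 were also called higher in the knockout group against the same WT libraries, where 19.7% of all genes were. That count rested on single libraries. Only the Iars call was kept without WT library 1, 2 or 3 and without knockout library 3 or 4. Without WT library 4, 4 calls were made. Genes called higher over the whole set fell in the same fits, from 2506 to between 705 and 943, and to 1305 without WT library 4. Over 17 alternatives the Vars call was lost in 11, that of Lars in 6 and those of Lars2, Iars2 and Vars2 in 5 each. Iars, the cytosolic isoleucyl-tRNA synthetase, rose by 1.07 (SE 0.16, limma adjusted p 5.42e-04) and Lars2, the mitochondrial leucyl-tRNA synthetase, by 1.00 (SE 0.16, limma adjusted p 6.84e-04) in Eμ-Myc. These enzymes use the same amino acids for protein synthesis that the breakdown route consumes. The 3 sestrin genes, a family with members that sense leucine and restrain mTORC1 when it is scarce, were called lower in Eμ-Myc, as were 26.7% of all genes. Sesn1 fell by 0.99 (SE 0.14, limma adjusted p 4.1e-04), Sesn2 by 0.98 (SE 0.32, limma adjusted p 0.0265) and Sesn3 by 0.64 (SE 0.21, limma adjusted p 0.0267). The calls of Sesn2 and Sesn3 were lost under 4 and 5 of the alternatives.

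**Figure D4:**
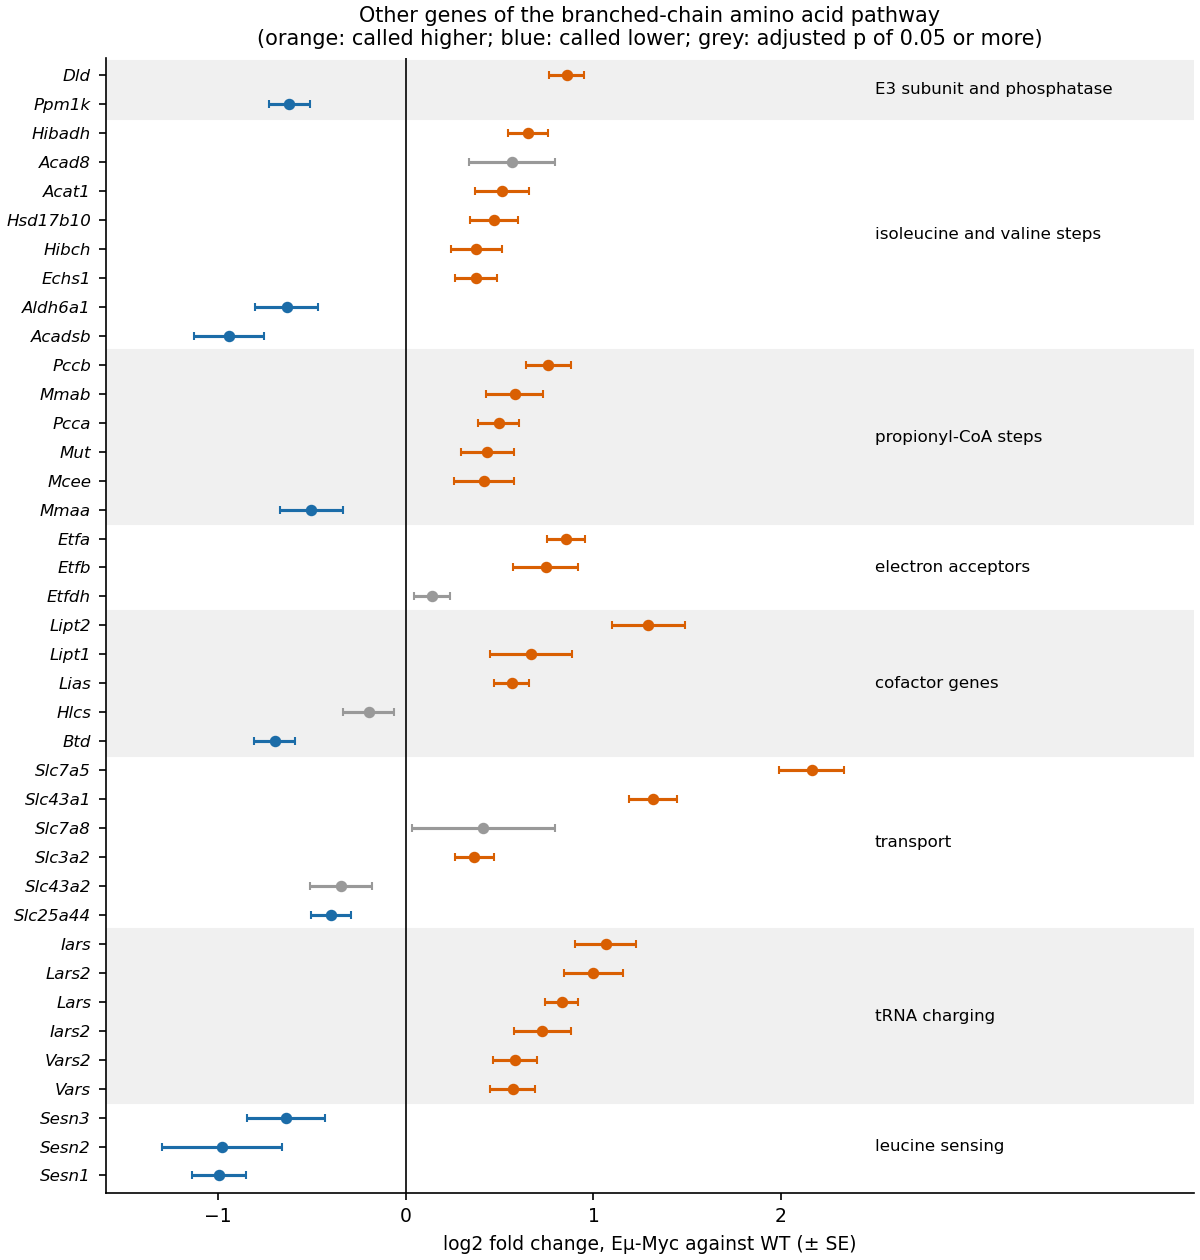
Log2 fold change with SE of 39 other pathway genes in Eμ-Myc against WT, grouped by role; orange genes were called higher, blue genes lower, and grey genes did not pass. All 6 tRNA charging genes are orange, all 3 leucine sensing genes are blue, and Slc7a5 stands highest at 2.16.

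Around the dehydrogenase complex, the E3 gene Dld was higher in Eμ-Myc than in WT by 0.86 on the log2 scale (SE 0.09, limma adjusted p 7.64e-05). Ppm1k, the phosphatase opposed to BCKDK, was singled out after its value was seen. Its scaled coverage was 55.9, 68.8, 71.5 and 67.4 in WT, 46.9, 39.1, 41.5 and 42.7 in Eμ-Myc, and 52.7, 51.7, 32.2 and 39.8 in the knockout group. It lay below WT in every library with the transgene, the opposite direction to Bckdk. In Eμ-Myc against WT it fell by 0.62 (SE 0.11, limma adjusted p 0.00117).

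Later steps were mixed, and the counts that follow are for Eμ-Myc against WT, where 29.1% of all genes were called higher and 26.7% lower. Of 8 isoleucine and valine genes, 5 were called higher and 2 lower, the latter being Acadsb, which oxidises the isoleucine product and fell by 0.94 (SE 0.19, limma adjusted p 0.0023), and Aldh6a1, a valine-branch dehydrogenase, which fell by 0.64 (SE 0.17, limma adjusted p 0.00993). Of the 6 genes from propionyl-CoA onward, 5 were called higher and 1 lower. The higher ones included Pccb, the beta subunit of propionyl-CoA carboxylase, with 0.76 (SE 0.12, limma adjusted p 7.0e-04). Among the 3 electron acceptor genes 2 were called higher, and among the 5 cofactor genes 3 were higher and 1 lower. Lipt2, which attaches the lipoate precursor, rose by 1.29 (SE 0.19, limma adjusted p 5.08e-04), and Btd, which recycles biotin, fell by 0.70 (SE 0.11, limma adjusted p 6.46e-04).

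Against WT the knockout group gave values for the same named genes from the same 4 WT libraries. Called higher there by limma were Slc7a5 at 2.27, Iars at 1.27, Lars2 at 1.18, Slc43a1 at 0.95 and Dld at 0.82. Called lower were Btd at -0.78 and Sesn1 at -1.06. For both sets the limma adjusted p ran from 0.00926 to 0.0315. Pccb at 0.61, Ppm1k at -0.60 and Slc25a44 at -0.31 were called as well (limma adjusted p 0.0311, 0.0416 and 0.0462). How the calls of Pccb, Ppm1k and Slc25a44 fared under the alternatives is not reported here. The calls of Slc7a5, Iars and Slc43a1 held under all alternatives run for them. The call of Dld was lost in 7 alternatives and that of Btd in 6, both counts with the replicate block included, that of Lars2 in 5 and that of Sesn1 in 4; without knockout library 3 or without knockout library 4 all 4 of these calls were lost. Lipt2 at 1.17, Acadsb at -1.02, Aldh6a1 at -0.51, Sesn2 at -1.14 and Sesn3 at -0.57 did not pass, with limma adjusted p from 0.0602 to 0.213. They were called in some alternatives, Lipt2 and Acadsb in 4 each, Aldh6a1 and Sesn2 in 2 each and Sesn3 in 1.

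Between the knockout group and Eμ-Myc, the wider genes with the smallest p were Slc43a1, Etfb and Pccb, and none passed. Under library quality weights Slc43a1 was called, at -0.28 (limma adjusted p 0.00217), as were 7000 of the 12535 genes tested. Slc43a1 had 45.4 to 49.0 in Eμ-Myc and 32.8, 37.2, 37.9 and 38.3 in the knockout group, ranges that did not overlap, with a log2 difference of -0.37 (SE 0.10, limma adjusted p 1.00). Groups did not overlap for 1 of the 41 wider genes, beside 1.43% of all genes tested. The difference was -0.25 for Etfb, a subunit of the electron transfer flavoprotein, and -0.15 for Pccb.

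Enzymes of similar chemistry outside the pathway were also read. Of 12 other aminotransferase genes 8 were tested, and 7 of them were called higher and 0 lower in Eμ-Myc against WT, beside 29.1% and 26.7% of all genes, with a median log2 difference of 1.05. Of 12 genes of the pyruvate and 2-oxoglutarate dehydrogenase complexes, their kinases and phosphatases, 11 were tested, and 6 were called higher and 0 lower, with a median of 0.38. In the knockout group against Eμ-Myc, limma called 0 genes of both lists, and 0 had an unadjusted p under 0.05. Over all 12535 genes tested these numbers were 1 and 124.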

How the data were processed

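Polyadenylated RNA of 12 directional libraries, 4 per genotype, was measured; the members and lists were chosen with earlier results of these data known. The deposited files, 1 for each library, give coverage per gene as a signal rounded to 1 decimal, for 24982 symbols; 91.6% of values above 0 were not whole. The submitters' processing notes name mm10, DESeq and R 4.3.3 without their roles; the aligner, strand setting and length handling are not given in the sources used here. The depth is unknown, so precision was taken from the spread between libraries.

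Coverage was divided by a factor per library from trimmed means of log ratios (from each end, 30% of the ratios and 5% of the means were trimmed, over values of at least 1). Genes with scaled coverage of at least 1 in 4 of the 8 libraries compared were fitted with limma 3.58.1 in R 4.3.3 on log2(scaled coverage + 0.5), using trended, robust empirical Bayes variances. Tests were two-sided with Benjamini-Hochberg adjustment over all genes and a threshold of 0.05. Fold changes on this scale understate the change of low genes. The method was tested on data simulated from the spread of these libraries. Log2 changes of 1 were recovered in 64.6% of cases for Eμ-Myc against WT. The share was 50% for the knockout group against Eμ-Myc and 44% for it against WT. For changes of 2 the shares were 87%, 78.6% and 73%, in the same order. False calls made up 5.03%, 7.97% and 6.4% of the calls. Tables and plots used Python 3.11.15, pandas 2.3.3, numpy 2.4.6, scipy 1.17.1 and matplotlib 3.10.9.

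Beyond the 9 members, wider pathway genes were named by a rule: of those called between Eμ-Myc and WT whose scaled coverage averaged 2 or more, the 6 that increased most and the 6 that decreased most, and the 3 of smallest p between knockout and Eμ-Myc. Same-numbered libraries of the knockout group and Eμ-Myc deviated together from their group means (r across genes 0.658, 0.192, 0.254 and 0.607). This met the condition for pairs there, on the values alone, while pairs with WT did not meet it. For libraries 2 and 3 the closest match was not the library of the same number. The values printed, the intervals and the ratio tests are all unpaired, and the replicate block was an alternative. Some genes of the wider list are not reported here by name. Alternatives were other scalings, filters and pseudocounts, a fit of all 12 libraries, a replicate block, library quality weights and leaving out each library. Within-library ratios and their exact tests were added after the data were seen. Promoters and gene positions came from RefSeq and GENCODE M21 on GRCm38.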

Additional observations from a re-analysis of the deposited data

Results flagged for a closer look

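Of 27 groups of 4 libraries, the 9 genes in 3 genotypes, 1 held a library far from the others. Dbt in knockout library 3 had a scaled coverage of 35.4, while the other knockout libraries lay between 30.9 and 31.3, so its gap took up 0.905 of the group's range. Chance alone marks about 1 in 20 groups at this threshold. The value lies within the WT range of Dbt.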

How the results depend on the processing

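Depth is unknown, strand use and length handling are not stated, and low values such as Bcat1 in WT depend on the pseudocount. In Eμ-Myc against WT the members called stayed at 5 or 6 in all alternatives, the 5 where Bcat1 missed the filter. Bcat2 and Mccc1 turned to -0.08 under total coverage scaling, and Bcat2 in the knockout group against WT to -0.04; leaving out a library gave Bcat2 -0.02 to 0.13, Dbt -0.12 to 0.00 and Mccc1 -0.01 to 0.11 against WT in Eμ-Myc, and Bcat2 -0.01 to 0.14 in the knockout group. In the knockout group against WT, all 12 libraries in one fit called 6095 genes. The replicate block called 1932 genes, 2 members and 8 wider genes. Library quality weights called 10607 genes, 7 members, with Bcat2 at 0.25 among them, and 39 wider genes, total coverage scaling 3 members, and leaving out a library 774 to 6748 genes, 0 to 5 members and 3 to 28 wider genes.

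In the knockout group against Eμ-Myc, the replicate block called 1 gene and 0 members and changed no call of a member. Library quality weights, which gave knockout libraries 1 and 2 weights of 0.0851 and 0.132 and libraries 3 and 4 weights of 3.08 and 8.18, called 7000 genes, 3 members (Bcat1 at 0.86, Bckdhb and Mccc2) and 21 wider genes; Mccc2 then stood at 0.18, Bcat2 at 0.16, Bckdha at 0.01, Dbt at -0.03, Bckdk at 0.13, Etfb at 0.05 and Pccb at 0.03. Bcat2 was 0.04 under median-of-ratios and total coverage scaling. Leaving out a library gave Bcat1 -0.31 to 0.46, Bcat2 -0.08 to 0.08, Bckdhb 0.00 to 0.30, Dbt -0.05 to 0.05, Mccc2 -0.17 to 0.03 and the log2 ratio of Bcat1 to Bcat2 -0.24 to 0.43.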
